A study of Homo sapiens with 24 samples.

Results

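The genes described here are 9 components of pericellular proteolysis, read out in PPC1 cells and their radiation-induced polyploid giant cancer cells (PGCC): the urokinase gene PLAU and its receptor gene PLAUR, the matrix metalloproteinase genes MMP1, MMP2, MMP3, MMP9, MMP10 and MMP14, and the inhibitor gene TIMP1. They were taken by symbol from the deposited count table, which held all 9 among 48162 genes. PPC1 is a human prostate cancer cell line, and PGCC are enlarged, polyploid cells that arise under therapy stress. Untreated cells (UT) were harvested on day 5. UT_LCL cells were not irradiated either, and received 5 µM LCL521, an inhibitor of the lysosomal enzyme acid ceramidase, for 5 h. PGCC received 8 Gy on day 2 and were caught on a 20 micron filter on day 5, and PGCC_LCL were prepared in the same way with the LCL521 exposure added. Each of the 4 conditions has 6 libraries of total RNA from 6 independent experiments, 24 libraries in all. The replicate number is taken here to name the experiment. Irradiation and size filtration always went together, so their parts in any difference between PGCC and parental cells cannot be told apart, and all cells are from 1 line.

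Cells break down and remodel the matrix around them with secreted and membrane-bound proteases. Urokinase, bound to its receptor at the cell surface, cleaves plasminogen to plasmin, and plasmin cleaves fibrin and activates several latent metalloproteinases. The metalloproteinases are made as inactive precursors, stromelysins can activate interstitial collagenase, MMP14 works at the cell membrane, and TIMP1 inhibits many of the secreted enzymes, so that a transcript level is not a measure of proteolytic activity. In cancer the system is known for its part in invasion.

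The libraries held 14835246 to 19906601 counts, and 3 counts corresponded to 0.151 to 0.202 CPM, the count scaled to library size. Along the first principal component, with 55.9% of the variance, the 12 giant cell libraries lay apart from the 12 parental ones. The second, with 16.5%, separated the 8 libraries of replicates 4 and 5, in all 4 conditions, from the other 16, and results are therefore also given without and within these replicates. The epithelial markers KRT8, KRT18, KRT19, EPCAM and CDH1 summed to 782 to 1030 CPM in UT and to 966 to 1480 CPM in PGCC, with mean levels of KRT8 and KRT19 higher and of KRT18 (233 and 169 CPM) and CDH1 (3.07 and 1.99 CPM) lower in PGCC. KRT19 made up most of this sum (mean 612 and 819 CPM), and EPCAM had only 0 to 6 counts in a UT and 3 to 17 in a PGCC library. The prostate luminal marker KLK3 had 0 counts in every library. The summed markers of 2 other cell types had higher ranges in giant cells: the 4 leukocyte markers PTPRC, CD14, CD68 and ITGAM summed to 0.464 to 2.97 CPM in UT and 3.12 to 4.54 CPM in PGCC, with CD68 at 0 in both, and the 5 fibroblast markers COL1A1, COL1A2, DCN, LUM and PDGFRB summed to 49.9 to 133 CPM and 79.6 to 206 CPM, of which COL1A2 made up most (mean 63.9 and 112 CPM) while COL1A1 had 8.36 and 7.05 CPM. Of the endothelial markers PECAM1, VWF and CDH5, 2 were in the table, at no more than 1.34 CPM in any library. The part of these marker levels in the results below was not tested.

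Compared per kilobase of gene model (RPKM), TIMP1 had the highest mean level of the 9 in UT, at 85.9 ± 8.61 (SD, n = 6), followed by MMP1 at 78.8 ± 24.9, MMP14 at 39.5 ± 10.8, PLAUR at 34.2 ± 4.33, PLAU at 25.3 ± 4.76, MMP10 at 7.69 ± 3.74 and MMP3 at 0.574 ± 0.214. TIMP1 and MMP1 overlapped in range (75.9 to 97.7 and 54.9 to 121 RPKM), as did MMP14, PLAUR and PLAU as neighbours in that order, whereas MMP10 and MMP3 stood clear of the genes beside them. In PGCC the order was TIMP1 at 174 ± 12.5, PLAU at 160 ± 74.8, MMP14 at 83.0 ± 11.9, MMP1 at 72.2 ± 8.51, PLAUR at 53.3 ± 5.37, MMP3 at 3.26 ± 1.68 and MMP10 at 1.95 ± 0.505 RPKM. PLAU had moved from the fifth place to the second, and MMP3 and MMP10 had changed places. In PGCC the ranges of TIMP1 and PLAU, of PLAU and MMP14, of MMP14 and MMP1, and of MMP3 and MMP10 overlapped. With LCL521 the mean levels kept these orders, both in UT_LCL and in PGCC_LCL.

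MMP2 and MMP9, the gelatinases, were at the edge of detection. MMP2 had 0 to 4 counts in a library, with 5 counts over the 6 UT, 6 over the UT_LCL, 3 over the PGCC and 5 over the PGCC_LCL libraries. MMP9 had 0 to 4 counts in a library, with sums of 1, 3, 8 and 11 counts in the same order. All 8 of these group means were below 3 counts per library, so no fold change is given, and both genes entered only the fit with no filter on low counts, where neither was called. A difference in either gelatinase was not detectable at this depth.

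**Figure D1:**
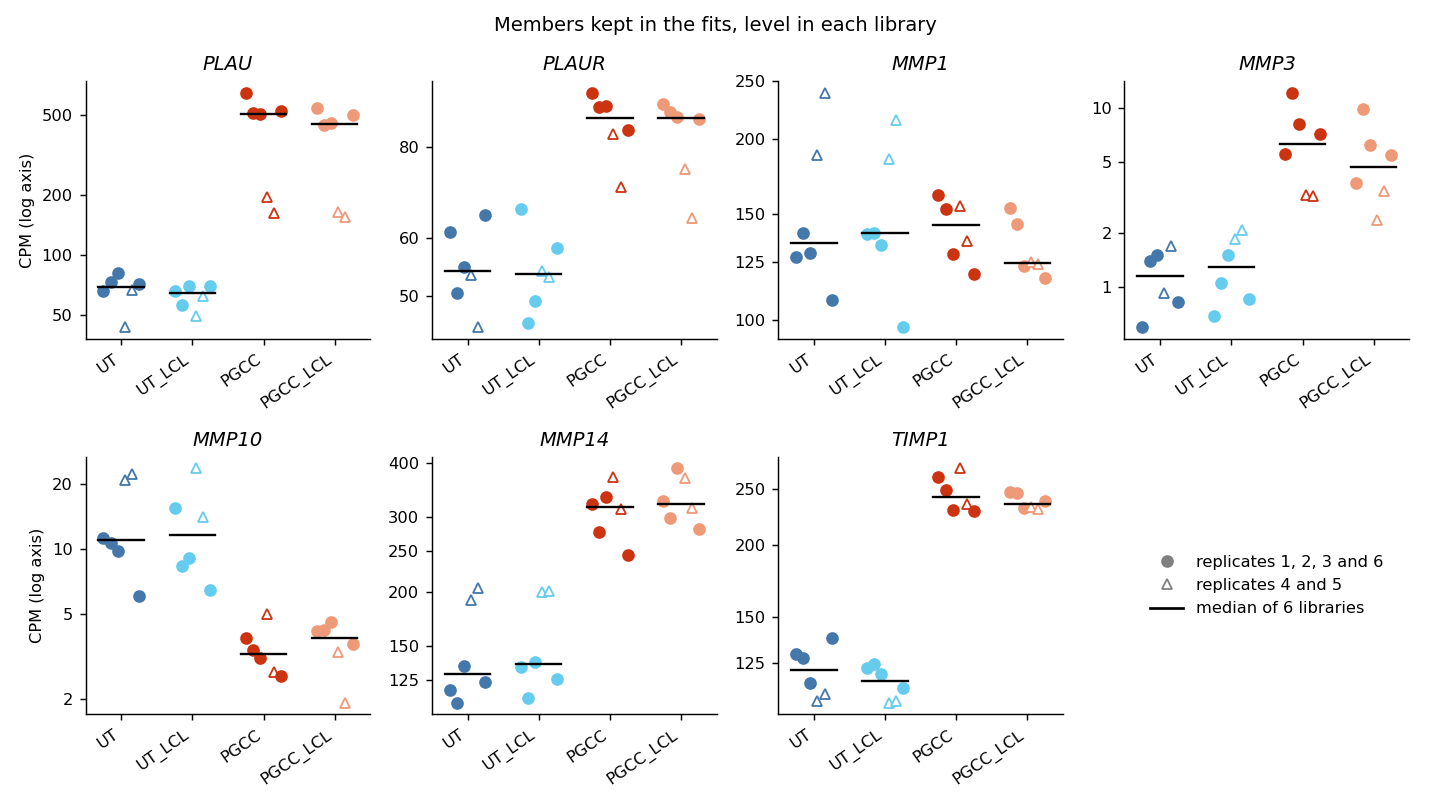
CPM of the 7 genes kept in the fits, 1 point per library on a log axis, with the 4 conditions on the horizontal axis, triangles for replicates 4 and 5 and a line at the median of 6 libraries. PLAU, PLAUR, MMP3, MMP14 and TIMP1 lie higher and MMP10 lower in PGCC than in UT, and the triangles of PLAU in both giant cell conditions lie at 155 to 194 CPM, below the circles.

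The comparison of PGCC with UT asks how the giant cell population differs from its parental cells. PLAU, MMP3, MMP14, TIMP1 and PLAUR were higher in PGCC, MMP10 was lower, and MMP1 did not pass the test. The largest rises were 6.39-fold for PLAU and 5.66-fold for MMP3, with overlapping intervals, and MMP10 stood at 0.254 of its UT level. In edgeR's quasi-likelihood test, with p-values adjusted over all genes by Benjamini-Hochberg, 6 of the 9 members were called at 0.05, 5 higher and 1 lower, with 7 in the fit. The background is large: 47.4% of the 13812 genes tested were called, 23.1% higher and 24.3% lower. In those 6 members no UT library overlapped with a PGCC library, against 26.8% of all genes tested. CPM are shares of a library, so a difference is one in relative and not in total RNA per cell, and in these bulk samples fewer cells of a type and less RNA per cell cannot be told apart.

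PLAU (chr10:75668935-75677255, plus strand, hg19) encodes urokinase, the plasminogen activator that works at the cell surface. It had 43.7, 69.4 and 81.0 CPM (lowest, median and highest library) in UT and 161, 510 and 649 CPM in PGCC. Every PGCC library was above every UT library, but replicates 4 and 5, at 194 and 161 CPM, were far below the other 4 PGCC libraries, which lay between 507 and 649 CPM. The log2 fold change was 2.675 (SE 0.316, adjusted p = 1.23e-05 by edgeR's quasi-likelihood test), with a 95% interval of 3.99 to 10.2 for the fold. Replicates 1, 2, 3 and 6 gave 7.62-fold (adjusted p = 7.2e-10) and replicates 4 and 5 alone gave 3.2-fold (adjusted p = 0.000115) in the same test. C10orf55, which overlaps PLAU on the opposite strand, had 28 counts over the 6 UT and 79 over the 6 PGCC libraries, against 6766 and 44477 for PLAU.

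PLAUR (chr19:44150247-44174699, minus strand) encodes the receptor that holds urokinase at the membrane. Its levels were 45.4, 54.2 and 64.5 CPM in UT and 70.6, 87.6 and 94.8 CPM in PGCC, with a gap between the groups. The rise was 1.57-fold (log2 0.65, SE 0.0998, adjusted p = 0.00012, edgeR), smaller than that of its ligand. The per-kilobase ratio of PLAU to PLAUR, chosen after the values were seen, had a median of 0.774 (0.494 to 0.896) in UT and 3.4 (1.38 to 4.14) in PGCC, so transcripts of the ligand went from fewer to more than those of the receptor in every library.

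MMP14 (chr14:23305766-23318236, plus strand), the membrane-anchored collagenase and activator of other metalloproteinases, had 111, 129 and 204 CPM in UT and 244, 317 and 371 CPM in PGCC. The groups were separate, although UT replicates 4 and 5, at 192 and 204 CPM, came nearest to the giant cells. MMP14 rose 2.11-fold (log2 1.078, SE 0.161, adjusted p = 9.39e-05, edgeR), 2.44-fold without replicates 4 and 5 and 1.73-fold in these alone.

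TIMP1 (chrX:47441712-47446188, plus strand), the secreted inhibitor, had 107, 122 and 138 CPM in UT and 229, 242 and 271 CPM in PGCC. It rose 2.03-fold (log2 1.022, SE 0.0781, adjusted p = 2.97e-07, edgeR), with the smallest standard error of the 7, and PGCC replicates 4 and 5, at 271 and 235 CPM, lay at the top and in the middle of their group. The ratio of MMP14 to TIMP1 per kilobase overlapped between the conditions, at 0.328 to 0.702 in UT and 0.404 to 0.553 in PGCC. The ratio of TIMP1 to MMP1 did not overlap, at 0.643 to 1.78 in UT and 2.25 to 2.67 in PGCC. Both ratios were chosen after the values were seen and carry no test.

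MMP1, MMP3 and MMP10 are neighbours on chromosome 11, all on the minus strand, and they differed in direction. MMP3 (chr11:102706532-102714534) encodes stromelysin-1, which degrades many matrix proteins and activates other metalloproteinases. It was low in UT, at 0.599, 1.16 and 1.69 CPM (11 to 29 counts), and had 3.22, 6.32 and 12.2 CPM in PGCC. All PGCC libraries were above all UT libraries, with replicates 4 and 5 lowest among the PGCC, and the log2 fold change was 2.502 (SE 0.365, adjusted p = 7.77e-05, edgeR). Without replicates 4 and 5 MMP3 was 7.66-fold higher, and in these alone 2.47-fold (adjusted p = 5.23e-06 and 0.0131, edgeR).

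MMP10 (chr11:102641234-102651359) encodes stromelysin-2, a close relative of MMP3. It had 6.02, 11 and 22.4 CPM in UT and 2.56, 3.25 and 4.96 CPM in PGCC. Here UT replicates 4 and 5 were the highest, at 20.9 and 22.4 CPM, and no PGCC library reached the lowest of UT. The log2 fold change was -1.976 (SE 0.301, adjusted p = 0.000113, edgeR). PGCC stood at 0.345 of UT without replicates 4 and 5 and at 0.176 in these alone (adjusted p = 4.14e-05 and 5.7e-05, edgeR). Per kilobase, MMP3 amounted to 0.0388 to 0.134 of MMP10 in UT and to 0.573 to 3.13 of it in PGCC, a ratio chosen after the values were seen.

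MMP1 (chr11:102660651-102668891), the interstitial collagenase that cleaves fibrillar collagen, is the gene between them. It had 108, 134 and 239 CPM in UT and 119, 144 and 162 CPM in PGCC, and the ranges overlapped throughout. The log2 fold change of -0.123 (SE 0.17, 95% interval -0.49 to 0.24, adjusted p = 0.578, edgeR) did not pass. The 6 experiments differed in direction. PGCC were higher in 3 of 6 pairs, and the paired log2 differences averaged 0.154 over replicates 1, 2, 3 and 6, against -0.551 for replicates 4 and 5. Replicates 4 and 5 alone gave a fall that passed (log2 -0.559, adjusted p = 0.00837, edgeR). The other 4 did not pass in the same kind of fit (log2 0.177, adjusted p = 0.162, edgeR). With the replicate as a block they gave a rise that passed (log2 0.174, adjusted p = 0.0318, edgeR), where 8881 of 13809 genes were called.

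**Figure D2:**
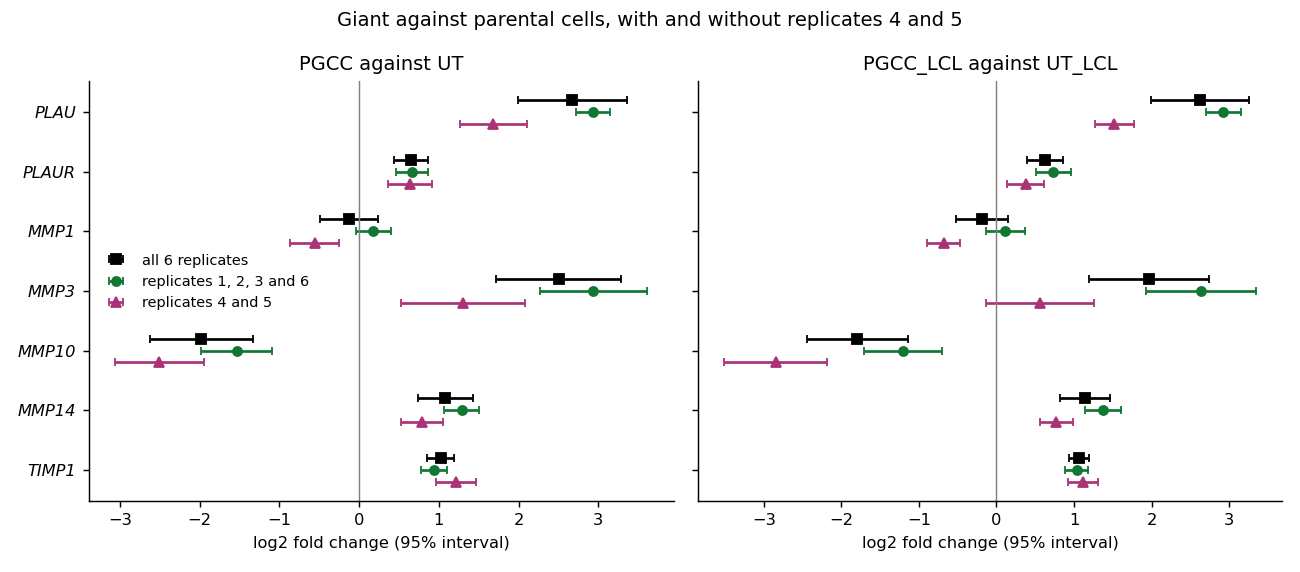
log2 fold change with its 95% interval for the 7 genes in PGCC against UT (left) and PGCC_LCL against UT_LCL (right), from all 6 replicates (squares), from replicates 1, 2, 3 and 6 (circles) and from replicates 4 and 5 (triangles). PLAU and MMP3 lie further from 0 in the circles, MMP10 in the triangles, and MMP1 lies on either side of 0.

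The metalloproteinase cluster of chromosome 11 holds, in order along the chromosome in hg19, MMP7, MMP20, MMP27, MMP8, MMP10, MMP1, MMP3, MMP12 and MMP13. MMP13, which encodes collagenase-3 and lies at the MMP3 side, had 18.7, 26.0 and 81.8 CPM in UT and 144, 209 and 371 CPM in PGCC (log2 fold change 2.514, SE 0.382, adjusted p = 0.000109, edgeR). UT replicates 4 and 5 were its highest UT libraries, at 62 and 81.8 CPM, and PGCC replicates 4 and 5 its lowest PGCC libraries. Its log2 fold change was 3.5 without these replicates and 1.14 in them alone. MMP12 and MMP7 were too low for the fit, with 12 and 6 counts over the 6 UT libraries and 82 and 43 over the 6 PGCC libraries. MMP20, MMP27 and MMP8 had 0 counts in UT and at most 3 over the 6 PGCC libraries. Of the tested cluster genes, MMP10 fell, and MMP3 and MMP13, on the other side of MMP1, rose. MMP7 lies on the MMP10 side and had more counts in PGCC, so the directions are not read as a split by position. WTAPP1, which overlaps MMP10, MMP1 and MMP3 on the opposite strand, had 28 counts over the UT and 32 over the PGCC libraries, against 117 and 684 counts for MMP3, the lowest of the 3 in UT.

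**Figure D3:**
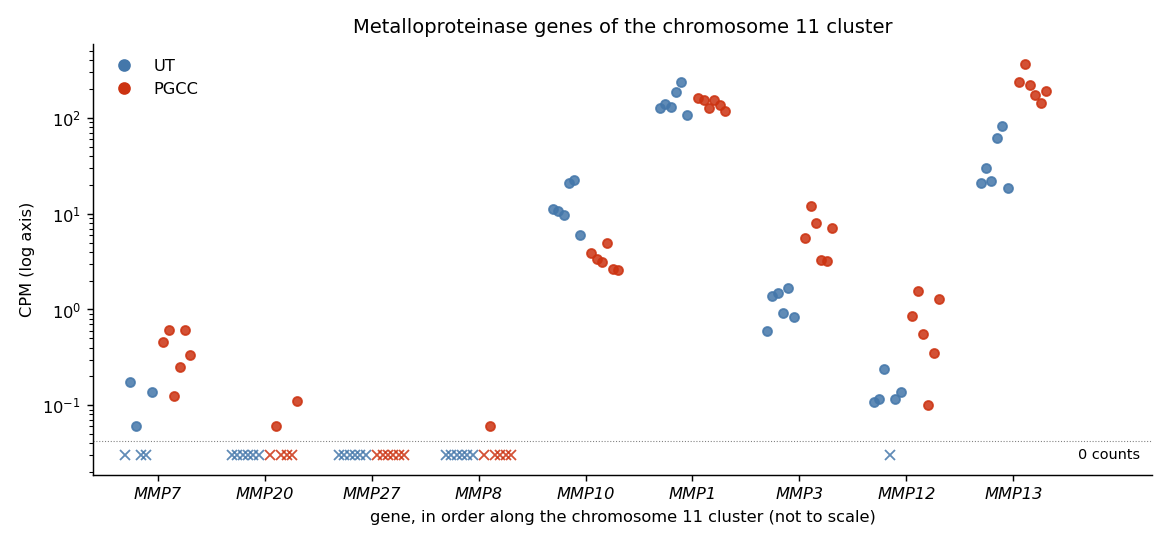
CPM on a log axis of the 9 metalloproteinase genes of the chromosome 11 cluster, placed in their order along the chromosome and not to scale, in the 6 UT (blue) and 6 PGCC (red) libraries, with crosses for 0 counts. PGCC points lie lower in MMP10, overlap with UT in MMP1 and lie higher in MMP3 and MMP13.

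AP-1 and NF-kB are transcription factors for which binding to several protease promoters is well known. The RefSeq promoter table (GRCh38.p14) matched 5 of the 9 members, MMP10, MMP14, PLAUR, TIMP1 and PLAU, the last with 2 start sites, and not MMP1, MMP2, MMP3 and MMP9. The 250 bases before each start were searched on both strands for the AP-1 motif TGANTCA and for the NF-kB motif. TGANTCA was in 6.57% of all 35116 promoters of this length and was found in MMP10, with its first base 67 bases before the start, and in PLAUR, 186 bases before it. The match was TGAATCA in MMP10, which only the looser form allows, and TGAGTCA in PLAUR. The NF-kB motif was in 9.96% of all promoters and in none of the members' windows, so no matches of the 2 motifs overlapped here. Sequence further upstream was not searched, so a missing match, as for PLAU, holds for these windows only. A match describes these letters and is neither a site nor a cause. The sequences up to the start are shown for both genes with a match, 1 that fell and 1 that rose in PGCC, and for both starts of PLAU, the gene with the largest rise, 5′ to 3′ on the gene's own strand, with TGANTCA matches in capitals.
MMP10 (minus strand, chr11:102780629-102780778): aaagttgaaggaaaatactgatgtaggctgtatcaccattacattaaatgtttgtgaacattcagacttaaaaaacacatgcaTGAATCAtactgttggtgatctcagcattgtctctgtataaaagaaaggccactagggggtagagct
PLAUR (minus strand, chr19:43670170-43670369): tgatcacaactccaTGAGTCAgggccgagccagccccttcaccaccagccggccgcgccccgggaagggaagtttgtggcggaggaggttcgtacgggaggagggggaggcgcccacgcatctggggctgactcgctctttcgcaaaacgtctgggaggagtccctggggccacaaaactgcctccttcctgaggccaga
PLAU, first start (plus strand, chr10:73910460-73910609): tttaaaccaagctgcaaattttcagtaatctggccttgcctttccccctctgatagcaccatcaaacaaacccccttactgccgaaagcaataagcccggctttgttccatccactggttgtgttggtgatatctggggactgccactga
PLAU, second start (plus strand, chr10:73910982-73911131): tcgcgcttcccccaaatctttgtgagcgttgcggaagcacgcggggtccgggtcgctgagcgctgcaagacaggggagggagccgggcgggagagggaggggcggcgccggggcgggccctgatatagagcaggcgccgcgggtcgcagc

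The comparison of PGCC_LCL with UT_LCL asks the same of cells under LCL521 and uses none of the libraries of the first. Its libraries come from the same 6 experiments, so it is not an independent repeat, and traits of single replicates can recur in it. The same members passed: PLAU at 2.627 (SE 0.295, adjusted p = 6.31e-06), MMP3 at 1.965 (SE 0.36, adjusted p = 0.000443), MMP14 at 1.139 (SE 0.152, adjusted p = 2.99e-05), TIMP1 at 1.062 (SE 0.0612, adjusted p = 1.2e-08) and PLAUR at 0.626 (SE 0.106, adjusted p = 0.000236) were higher on the log2 scale and MMP10 at -1.796 (SE 0.303, adjusted p = 0.000229) lower, by edgeR. MMP1 again did not pass (log2 -0.184, adjusted p = 0.346, edgeR), and again fell in replicates 4 and 5 alone (log2 -0.68, adjusted p = 0.00019). Of all 13818 genes tested 48.9% were called, 25% higher and 23.9% lower. PLAU had 49.6, 64.3 and 70.2 CPM in UT_LCL and 155, 453 and 544 CPM in PGCC_LCL, with replicates 4 and 5 lowest among the giant cells again, at 165 and 155 CPM. MMP3 came close to overlap, at 0.692 to 2.08 CPM in UT_LCL and 2.36 to 9.83 CPM in PGCC_LCL, and in replicates 4 and 5 alone its log2 fold change of 0.558 did not pass (adjusted p = 0.163, edgeR). PLAUR overlapped, with 65.8 CPM in the highest UT_LCL and 64.0 CPM in the lowest PGCC_LCL library. The other 5 called members did not overlap, against 28.1% of all genes tested.

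The genes around these 9 in the same systems moved in both directions, and their counts are read against the 47.4% of all genes called. Of 17 listed genes of the plasminogen system other than PLAU and PLAUR, 16 were in the table and 11 were tested in PGCC against UT, and 6 rose and 3 fell, with a median log2 fold change of 0.54 against -0.028 over all genes. SERPINB2, an inhibitor of plasminogen activators and among the 6 that rose, was at the floor in UT, with 1 to 5 counts in a library. It had 24 to 90 in PGCC and entered the fit through PGCC, so no fold is given. The tally and the median thus include a gene that the filter kept for its PGCC counts. PLAT, the tissue plasminogen activator, rose by 2.65 (SE 0.141, adjusted p = 1.54e-08, edgeR), from 19.6 to 34.8 CPM in UT to 142 to 223 CPM in PGCC. MRC2, an endocytic collagen receptor that associates with the urokinase receptor, rose by 2.64 (SE 0.138). The 3 genes that fell were F12, coagulation factor XII, at -1.04, PLGRKT, a plasminogen receptor, at -0.56, and ENO1, a glycolytic enzyme that also binds plasminogen, at -0.42. PLG, the gene of plasminogen itself, was at 0 to 13 counts in every library.

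Of the 17 other matrix metalloproteinases 7 were tested, and 4 rose and 1 fell, with a median of 0.61. Beside MMP13 the largest rises were in MMP24, a membrane-type enzyme, at 1.25 (SE 0.212), and MMP11, stromelysin-3, at 0.94 (SE 0.261), and the fall was in MMP15, another membrane-type enzyme, at -1.01 (SE 0.277), not called in replicates 4 and 5 alone (0.19). Both tested genes among 5 other metalloproteinase inhibitors rose, TIMP2 by 0.83 (SE 0.0712) and the membrane-anchored inhibitor RECK by 0.69 (SE 0.139). Of 12 pericellular serine proteases, convertases and their inhibitors 6 were tested, and 3 rose and 1 fell, with a median of 0.3. PRSS23 rose by 0.93 (SE 0.203), HTRA1, a secreted serine protease, by 0.78 (SE 0.0778) and PCSK7 by 0.57 (SE 0.114), and FURIN, the convertase that activates MMP14, had a log2 fold change of -1.44 (SE 0.292, adjusted p = 0.00107, edgeR).

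Of 19 ADAMTS proteases 9 were tested, and 2 rose and 2 fell, a share near that of all genes, with a median of 0.05. The 2 that rose were ADAMTS6, with 0 to 7 counts in a UT and 22 to 94 in a PGCC library, and ADAMTS16, with 2 to 13 and 17 to 48. Both entered the fit through PGCC, so no fold is given, and the tally includes them through that filter. ADAMTS17 stood at -1.36 (SE 0.128) and ADAMTS15 at -0.65 (SE 0.109). All 12 AP-1 and ETS factor genes, factors for which binding sites occur in many protease promoters, were tested, and 8 rose and 0 fell, with a median of 0.78. The largest rises were in ATF3 at 2.03 (SE 0.626), FOSB at 1.61 (SE 0.224) and ETS1 at 1.55 (SE 0.283). In replicates 4 and 5 alone, 5 of these 12 rose and 4 fell, where 6521 of 14270 genes were called, 3362 higher and 3159 lower. ATF3 was lower there at -0.41 (adjusted p = 0.0307, edgeR), and ETS1 was not called at 0.13.

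The comparisons of UT_LCL with UT and of PGCC_LCL with PGCC ask what 5 h of acid ceramidase inhibition does. No member was called in either, where 0% of 13277 and 0.00707% of 14151 genes were called, 0 genes and 1 gene. At an unadjusted p under 0.05 there were 71 and 218 genes, and DESeq2 called 0 and 6. In UT_LCL against UT the log2 fold changes of the 7 tested members lay between -0.1 for PLAU (SE 0.139) and 0.22 for MMP3 (SE 0.327). In PGCC_LCL against PGCC they lay between -0.33 for MMP3 (SE 0.363) and 0.1 for MMP14 (SE 0.1). The interaction of population and LCL521, fitted on all 24 libraries, called 0% of 14555 genes with or without the replicate as a block, with 60 genes at an unadjusted p under 0.05 and 0 called by DESeq2, so a difference in the LCL521 response between the populations was not shown for any member.

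Experiments were run in parallel in all 4 conditions, and with the replicate as a block 0.866% of genes were called in UT_LCL against UT and 1.65% in PGCC_LCL against PGCC. In that fit PLAU was lower in PGCC_LCL than in PGCC, at 0.895-fold (log2 -0.16, SE 0.0336, adjusted p = 0.0112, edgeR), as the only member called. It was lower in all 6 experiments, by 0.161 ± 0.0850 on average on the log2 scale (SD of 6 pairs), with 649 against 544 CPM in replicate 1 and 161 against 155 CPM in replicate 5. This change was small beside the spread between experiments, in which PGCC libraries ranged from 161 to 649 CPM. MMP1 was lower in 6 of 6 pairs and MMP3 in 5 of 6, but neither passed (adjusted p = 0.145 and 0.116, edgeR with the block). MMP10 split by experiment in PGCC_LCL against PGCC: the paired log2 difference was 0.1 to 0.54 in replicates 1, 2, 3 and 6 and averaged -0.51 in replicates 4 and 5.

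**Figure D4:**
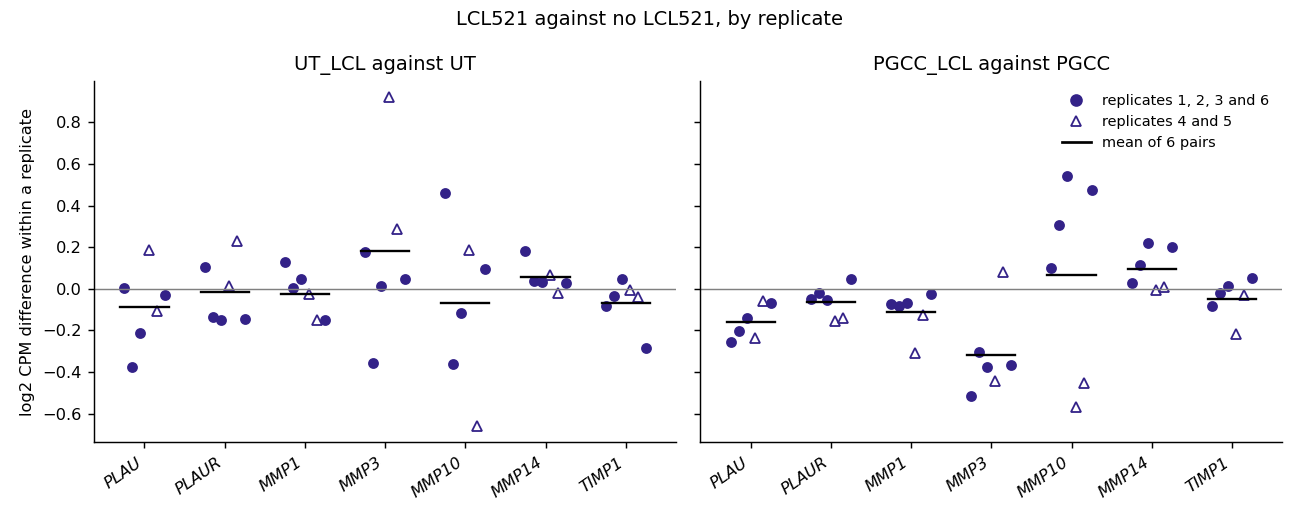
log2 CPM with LCL521 minus log2 CPM without it, within each of the 6 replicates, for the 7 genes in parental cells (left) and giant cells (right), with triangles for replicates 4 and 5 and a line at the mean of 6 pairs. The 6 points of PLAU lie below 0 in giant cells, and those of MMP10 lie on both sides.

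Listed genes of the plasminogen system were also lower under LCL521 in the blocked fit. In PGCC_LCL against PGCC 3 of 11 tested were lower and 0 higher, where 0.572% of all genes were lower, among them PLAT at -0.18 (SE 0.0377, adjusted p = 0.00886) and S100A10, the annexin A2 partner that binds plasminogen, at -0.13 (SE 0.034, adjusted p = 0.0462, edgeR). MMP13 was lower by 0.202 (SE 0.0371) and ETS1 by 0.228 (SE 0.0412). In UT_LCL against UT 2 of 10 plasminogen system genes were lower and 0 higher, where 0.346% of all genes were lower: PLAT at -0.29 (SE 0.0529, adjusted p = 0.017) and S100A10 at -0.26 (SE 0.0543, adjusted p = 0.0318, edgeR). FOSL1 at -0.24 (SE 0.0453) and ETS1 at -0.3 (SE 0.0536) were the factor genes called lower there. None of these was called without the block.

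Within conditions the members fell into different patterns. After each condition's mean was subtracted, Pearson's r of log2 CPM over the 24 libraries was 0.797 between MMP1 and MMP10, 0.746 between MMP1 and MMP14 and 0.72 between MMP10 and MMP14, 0.636 between PLAU and PLAUR, 0.569 between PLAU and MMP3, and -0.56 between MMP14 and TIMP1. These points share experiments, and replicates 4 and 5 set part of them apart. The genes most like each member by the same measure were MRPS10, the gene listed as 10-Sep and ANXA7 for MMP1 (r of 0.947 to 0.963), TNFRSF9, ATG12 and IL4I1 for MMP3 (0.803 to 0.853), EDIL3, TSPAN31 and SHISA3 for MMP10 (0.883 to 0.917), DNASE2, ATP9A and LRP10 for MMP14 (0.94 to 0.951), NFKB1, ANKRD13A and TOR1AIP1 for PLAU (0.924 to 0.937), TNFRSF10A, USP36 and TMEM127 for PLAUR (0.846 to 0.888) and CTSA, PLP2 and CSTB for TIMP1 (0.874 to 0.917).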

How the data were processed

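RNA sequencing of 24 PPC1 libraries was used. Per the labels' processing notes, which name no versions, the authors used CASAVA, STAR, HTSeq and DESeq2 with hg19, and the deposited values are raw read counts per gene with coordinates and a gene length. Whether counting used strand is not given in the sources used here, so reads of PLAU, TIMP1 and the chromosome 11 genes and of genes on the opposite strand may not be separated. The sources differ on the day of LCL521 exposure, and the labels' days are given. Groups and replicate numbers came from the labels.

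Counts were kept by filterByExpr (minimum count 10, minimum total 15), scaled by TMM and tested with edgeR 4.0.16's quasi-likelihood test (R 4.3.3) in the 12 libraries of each comparison, or in all 24 for the interaction. Benjamini-Hochberg adjustment ran over all genes tested, at 0.05. SE is the log2 fold change divided by the root of F. CPM are TMM-scaled, log2 CPM use a prior count of 2, and RPKM are CPM per kilobase of the deposited length. Intervals and floors cover counting error or the spread between libraries only. Libraries of 1 condition differed by more than sampling noise (chi-square per degree of freedom 4.69 to 109.8 over 60 pairs). The series states that all conditions were harvested in parallel in each experiment, and the pairing rests on that statement and the replicate numbers. Same-numbered libraries deviated together: the lowest correlation of deviations was 0.171 to 0.458 over the 4 comparisons. Medians for different numbers were -0.337 to -0.0799. Replicates 4 and 5 stand apart in all 4 conditions, so these correlations cannot show the pairing number by number. Alternatives were RLE factors, library totals, DESeq2 1.42.0, no filter, all 24 libraries in 1 fit, a replicate block and leaving out replicates. On simulated counts of PGCC against UT, 200 genes were changed by a known fold, larger than any tested member's fitted change under LCL521. Where simulated replicates differed, their effects (SD 0.5 on the log2 scale) were drawn gene by gene and were equal in all conditions. In that setting 192 of the changed genes were recovered without and 200 with the block. Of the other genes, 0 were called without and 12 with the block. For the interaction, 77 of 200 were recovered without and 200 with the block, with 0 and 8 other calls. In the data, replicates 4 and 5 departed by different amounts in parental and giant cells, as for PLAU. The simulated recoveries therefore do not give the power to detect a small change or an interaction in the members.

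The members and gene lists were chosen with earlier results of these data known. Named were all 9 members, of each list the 3 largest called rises and falls in PGCC against UT, list genes called for LCL521, and the 3 genes with the highest r for each member. Some genes that this rule or the marker lists name are not reported here.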

Additional observations from a re-analysis of the deposited data

How the results depend on the processing

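In PGCC against UT and PGCC_LCL against UT_LCL, the calls and directions of PLAU, PLAUR, MMP10, MMP14 and TIMP1 were the same under every alternative tried, and MMP3 lost its call once, in PGCC_LCL against UT_LCL with replicates 4 and 5 alone (log2 0.558). MMP1 turned in PGCC against UT without replicates 4 and 5 (0.177, and 0.174 with the replicate block) and by library totals with the block (0.022), and ranged from -0.216 to 0.064 with 1 replicate left out, the highest being without replicate 5. Under LCL521 it turned without replicates 4 and 5 (0.115, with the block 0.119). The cause was not tested. Library totals gave 3820 higher and 2521 lower genes in PGCC against UT in place of 3186 and 3355, and moved the median of all genes from -0.028 to 0.066.

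In UT_LCL against UT the replicate block called 115 genes in place of 0, 3 without replicates 4 and 5, and 89 with library totals. Values near 0 turned: PLAUR by totals (0.017, also with the block) and in replicates 4 and 5 alone (0.115), where PLAU was 0.013; without replicates 4 and 5, MMP1 (0.026, with the block 0.02), MMP3 (-0.053 and -0.051) and MMP10 (0.061 and 0.043); and MMP1 by totals with the block (0.006). With 1 replicate left out PLAUR ranged from -0.049 to 0.018, MMP1 from -0.058 to 0.012 and MMP10 from -0.179 to 0.107. In PGCC_LCL against PGCC 1 gene was called, 6 by DESeq2, 0 in the fit of all 24 libraries, without replicates 4 and 5 or in these alone, and 0 to 1 with 1 replicate left out. The block called 234 genes, 129 without replicates 4 and 5 and 194 with library totals, each time with 1 member, PLAU. MMP10 was -0.531 in replicates 4 and 5 alone and ranged from -0.01 to 0.253 with 1 replicate left out. In the interaction TIMP1 turned by totals (-0.001, with the block -0.002) and in replicates 4 and 5 alone (-0.087), where MMP10 was -0.332 and MMP14 -0.003, and PLAUR without replicates 4 and 5 (0.051, with the block 0.055). With 1 replicate left out TIMP1 ranged from -0.046 to 0.066 and PLAUR from -0.094 to 0.012. Besides this and MMP1 in PGCC against UT without replicates 4 and 5, the block changed no member's call. Library totals with the block and replicates 4 and 5 alone were chosen after seeing the data. The test planned for genes below the filter was not run, since MMP2 and MMP9 averaged under 3 counts per library in every condition. With 6 experiments of 1 cell line, p-values reach no further than these experiments. Without the block they measure the spread of libraries within conditions, and with it the spread of differences within experiments. In replicates 4 and 5 alone they rest on these replicates only.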
